A study of Sparus aurata with 9 samples.

Results

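The genes described here act when a cell divides. They drive it into mitosis, attach its chromosomes to the spindle, pull the chromosomes apart and cut the cell in 2. They were found by symbol from a fixed set of mitosis and cytokinesis names (Cdk1 and the mitotic cyclins, aurora and polo kinases, spindle checkpoint, centromere and kinetochore proteins, condensin, spindle and cleavage genes). This gave 67 of the 27159 genes in the deposited table, under 64 different symbols. RNA was sequenced from myoblasts of gilthead sea bream (Sparus aurata), isolated from fast muscle and grown to day 8 of culture, in 9 libraries, 3 per group. The cells of all groups had first spent 12 h without amino acids. CTR cells stayed in that restriction medium to a total of 36 h, AA cells received amino acids for the following 24 h in DMEM, listed without serum, and Igf-1 cells received sea bream Igf-1, with albumin as carrier, for the same 24 h in a medium that still lacked amino acids. AA and CTR thus differed in the whole medium, a salt solution with glucose and vitamins in CTR and DMEM in AA. The cells were primary cultures of fingerling muscle, and the study's 3 independent cultures are not linked to the numbered libraries in the sources used here, so p-values measure the spread between the libraries as deposited.

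Entry into mitosis is driven by Cdk1 bound to cyclin B, and is switched on by Cdc25 phosphatases and by polo and aurora kinases. Condensin and topoisomerase II then compact the chromosomes, kinetochores built on the centromere hold spindle microtubules, and the spindle checkpoint blocks separation until every kinetochore is attached. The anaphase-promoting complex with Cdc20 releases separase, and anillin, Ect2 and the central spindle proteins close the cleavage furrow. Most of these genes are transcribed in a wave late in the cell cycle, and in muscle they are used by proliferating myoblasts and not by fused myotubes.

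Values are normalized counts, the deposited estimated counts divided by the effective library size and brought to a common size. Deposited totals ran from 48725967 to 67887824 estimated counts per library, and about 4 counts appeared to stand for 1 sequenced pair. The libraries of each group are named 1 to 3 in this order in every sentence of values. CTR 3 stood apart by its scaling factor, 0.791, where the other libraries lay between 0.929 and 1.21. Over the genes described, CTR varied most, with a median coefficient of variation within the group of 31.7% against 17.4% in Igf-1 and 17.6% in AA, and CTR 2 was the lowest of the 9 libraries for 28 genes. Of the 67 genes, 64 had enough counts to be tested. The 3 others were birc5b, with counts in Igf-1 3 alone, ccna1, at 16.5 normalized counts or fewer in every library, and the foxm1 gene ENSSAUG00010018334, at 0 in all 9 libraries. In a single fit over 17687 genes, the test was passed where the Benjamini-Hochberg adjusted p did not exceed 0.05 and the log2 fold change was 1 or more in either direction.

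Most of this machinery was more abundant with AA. Of the 64 genes tested, 48 were higher than in CTR and 0 were lower, where 4.83% of all genes tested were higher and 3.79% lower. The median log2 fold change was 2.64, against −0.01 over all genes, and 63 of 64 were above 0. Among all 64, whether or not they passed, the rise was 4-fold or more for 42 genes and 8-fold or more for 15. The shares of all genes at these sizes were not computed. In 55 of 64 every AA library lay above every CTR library, as in 14.6% of all genes. Counted on the adjusted p alone, 51 of 64 were higher (7.46% of all genes). In bulk RNA, more dividing cells and more RNA per dividing cell cannot be told apart. At an unadjusted p of at most 0.05 in edgeR, 56 were higher and 0 lower (13.6% and 14.5% of all genes), and DESeq2 called 50 higher and 0 lower. Leaving out CTR 2 gave 43 genes and leaving out CTR 3 gave 50. Over all genes, calls in both directions were 1525 in the main fit and 1893 in DESeq2. They were 1296 without CTR 2 and 1566 without CTR 3.

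With Igf-1 in the absence of amino acids, few of these genes passed. Here 1 of the 64, mybl2b, passed as higher (0.141% of all genes) and 0 passed as lower (0.119%). The median log2 fold change was 0.39 against 0.00 over all genes, and 53 of 64 were above 0. Groups did not overlap in 16 of 64 genes, with Igf-1 above CTR, as in 9.35% of all genes. At an unadjusted p of at most 0.05, 15 of 64 were higher and 0 lower, beside 5.07% of all genes higher, and DESeq2 called 3 higher and 0 lower. Over all genes, calls in both directions were 46 in the main fit and 218 in DESeq2. For 25 genes the 95% interval of the difference lay under a log2 fold change of 1. For 39 its upper limit reached 1 or more, so a rise of 2-fold or more lay within the interval there. The interval of mybl2b, 1.02 to 2.16, lay wholly above 1. The 16 genes without overlap were ccna2, ccnb1, mybl2b, nek2, cenpl, espl1, smc4, top2a, ncapd2, ncapg2, ncaph, ncaph2, aspm, dlgap5, PRC1 and cdca7a, which come from several roles.

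Compared directly, AA exceeded Igf-1 in 41 of 64 genes and was lower in 0, where 2.43% of all genes were higher and 1.89% lower. The median log2 fold change was 1.94 against −0.03 over all genes. At an unadjusted p of at most 0.05, 50 were higher and 0 lower (10.3% and 11.1% of all genes), and DESeq2 called 46 higher and 0 lower. Over all genes, calls in both directions were 765 in the main fit and 1023 in DESeq2. In 54 of 64 genes every AA library lay above every Igf-1 library (13.6% of all genes). The 3 comparisons share libraries in pairs, so their values are set side by side and no count is read as a repeat of another.

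**Figure D1:**
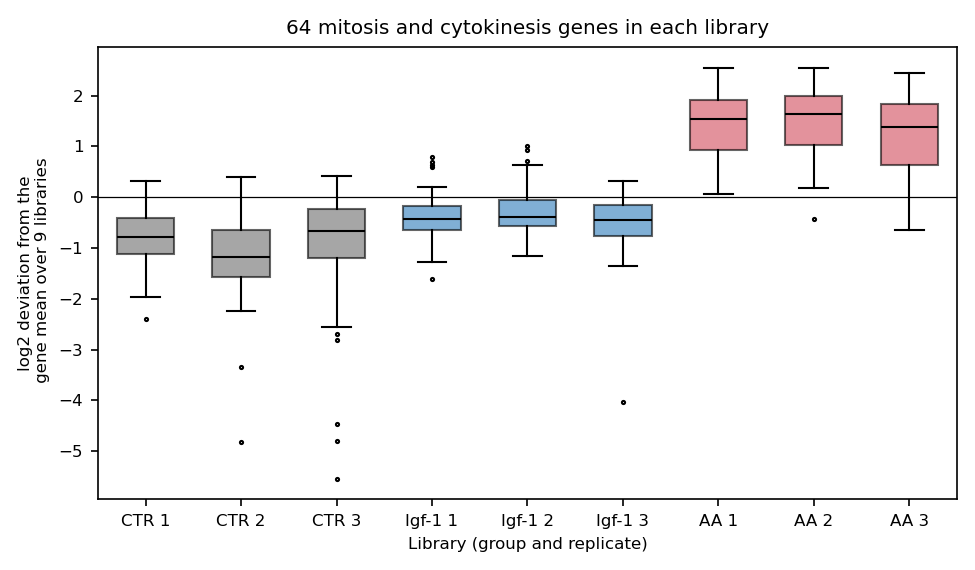
Log2 deviation of each of the 64 tested genes from its own mean over the 9 libraries (y axis), as 1 box per library (x axis); the line is the median, the box spans the quartiles, the whiskers reach the last gene within 1.5 box lengths, and points are genes beyond. The medians of the 3 AA libraries sit at 1.39 to 1.64, those of Igf-1 at −0.44 to −0.38 and those of CTR at −1.18 to −0.66.

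Taken by library, the summed normalized count of the 64 genes was 20333, 18850 and 21711 in CTR, 22770, 24667 and 25351 in Igf-1, and 60666, 63657 and 51989 in AA. The 3 groups did not overlap in this sum, in which abundant genes weigh most. Smc4, which did not pass, held 5362, 4941 and 3381 of it in CTR and 5985, 6166 and 6685 in Igf-1. The separation of CTR from Igf-1 in this sum depends on smc4. AA 3 was the lowest of the AA libraries and lay well above the highest Igf-1 library.

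Genes of entry into mitosis gave 10 of 14 tested higher with AA, with a median log2 fold change of 2.61. Cdk1, the kinase whose activity defines mitosis, was at 669, 622 and 1078 in CTR, 799.7, 865 and 707 in Igf-1 and 3016, 3784 and 2000.0 in AA (gene cdk1). Every AA library was above all others, and CTR and Igf-1 overlapped. The log2 fold change was 1.89 ± 0.27 (SE, adjusted p = 0.00137) with AA and 0.00 ± 0.27 (SE, adjusted p = 0.999) with Igf-1. Its partner cyclin B1 (ccnb1) was at 172, 105 and 206 in CTR, 267, 263 and 347 in Igf-1 and 2627, 2392 and 1871 in AA. The 3 groups were in the order CTR, Igf-1, AA with no overlap, and AA was 14.3-fold above CTR (log2 fold change 3.84 ± 0.28, SE, adjusted p = 6.98e-05). Igf-1 stood at 0.86 ± 0.26 (SE, adjusted p = 0.249) and did not pass. Cyclin A2 (ccna2), which binds Cdk1 before cyclin B does, measured 53.1, 113 and 117 in CTR, 176, 167 and 230.3 in Igf-1 and 1298, 1659 and 1147 in AA. Again no group overlapped another, and 3.86 ± 0.33 (SE, adjusted p = 0.000112) with AA was the highest log2 fold change among the 64 genes, with Igf-1 at 1.02 ± 0.31 (SE, adjusted p = 0.25).

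The phosphatase CDC25B, which activates Cdk1, was measured at 609, 752 and 850.4 in CTR, 591, 743 and 703 in Igf-1 and 1276, 1239 and 1006 in AA. All AA libraries were above the rest, but the log2 fold change of 0.67 ± 0.19 (SE, adjusted p = 0.0364) passed on p and not on size. Mybl2b, the sea bream b copy of B-Myb, a transcription factor that turns on late cell cycle genes in mammals, gave 42.7, 31.9 and 33.2 in CTR, 95.2, 115 and 116 in Igf-1 and 355, 469 and 416 in AA. The groups were fully separated in the order CTR, Igf-1, AA. Mybl2b rose with AA by 3.51 ± 0.27 (SE, adjusted p = 6.98e-05) and with Igf-1 by 1.59 ± 0.26 (SE, adjusted p = 0.0403). Both values rest on few sequenced pairs in CTR. The Igf-1 call was lost when any single library was left out, of whichever group, with the log2 fold change between 1.51 and 1.73. The adjusted p was then 0.0701, 0.182 and 0.0696 without CTR 1, 2 and 3, 0.111, 0.214 and 0.137 without Igf-1 1, 2 and 3, and 0.0934, 0.0535 and 0.0525 without AA 1, 2 and 3, and with CTR and Igf-1 alone in the fit it was 0.136.

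Among the other kinases of mitotic entry, PLK1, which helps start and end mitosis, rose with AA by 2.92 on the log2 scale, aurka, the spindle pole aurora kinase, by 2.57, pbk by 3.12 and melk by 2.65. Cyclin ccnb3 rose by 2.38. With Igf-1 these 5 genes lay between 0.09 and 0.99 and none passed. The kinase gene nek2, which acts in centrosome separation, did not pass with AA (1.43 ± 0.60, SE, adjusted p = 0.145) and was at 1.34 ± 0.59 (SE, adjusted p = 0.534) with Igf-1. Foxm1 ENSSAUG00010017515, a transcription factor of the late cell cycle, was at 49.6 normalized counts or fewer in every library but AA 3 and did not pass with AA (2.24 ± 1.00, SE, adjusted p = 0.171), though it did without Igf-1 3 (adjusted p = 0.0428).

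**Figure D2:**
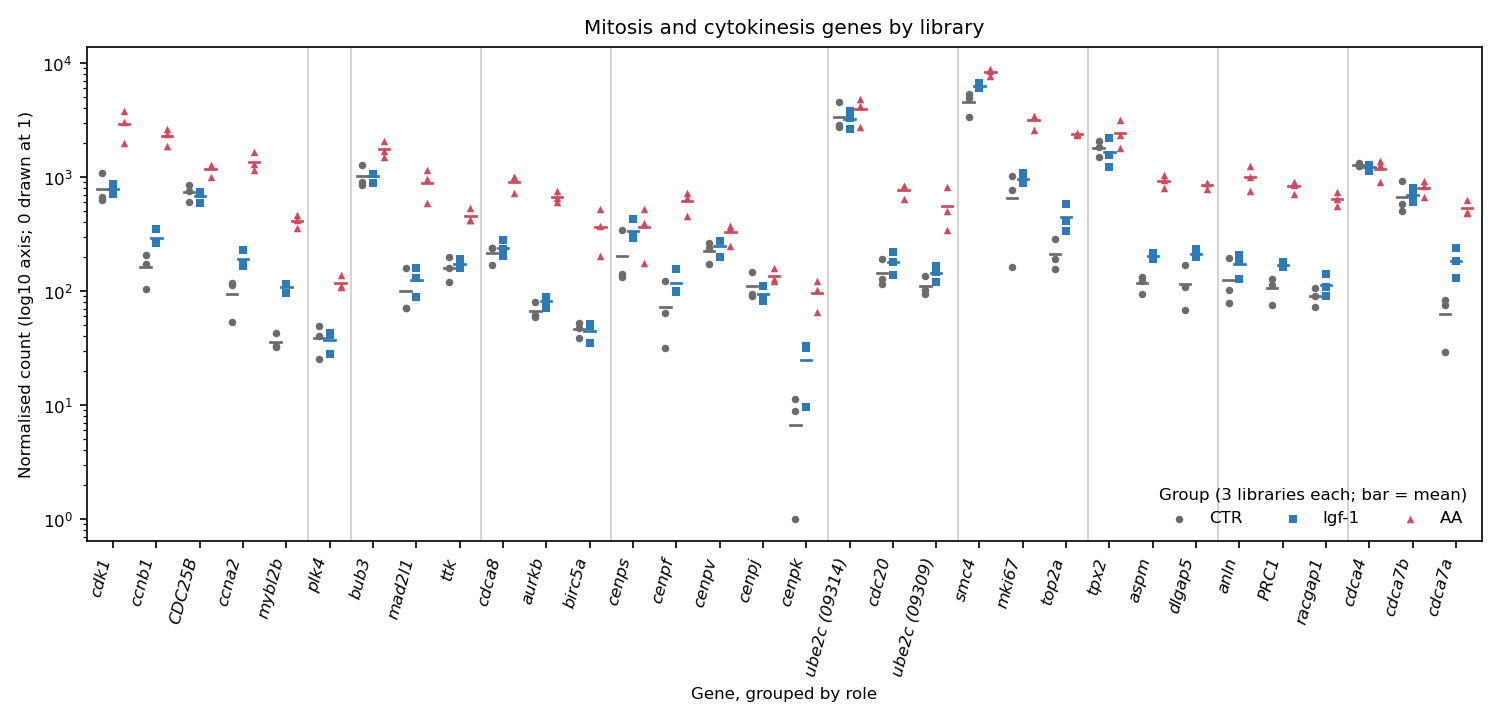
Normalized counts (y axis, log10 scale, 0 drawn at 1) of the 32 genes given in full (x axis), with 1 point per library, a bar at each group's mean and grey lines between roles. All 3 AA libraries stand above CTR and Igf-1 for ccnb1, ccna2, aurkb and top2a, whereas the groups overlap for cdca4, tpx2 and the ube2c gene ENSSAUG00010009314.

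Plk4, the kinase that starts centriole duplication, was at 49.3, 25.3 and 40.4 in CTR, 27.9, 40.8 and 42.4 in Igf-1 and 109, 109.6 and 137 in AA. CTR and Igf-1 overlapped and AA lay above both. The log2 fold change with AA was 1.62 ± 0.40 (SE, adjusted p = 0.0198), and the call was lost without CTR 2 (adjusted p = 0.0668) or without AA 3 (adjusted p = 0.0631). With Igf-1 it was −0.05 ± 0.39 (SE, adjusted p = 0.993).

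Spindle checkpoint genes were higher with AA in 3 of 4. Mad2l1 encodes Mad2, the inhibitor that holds Cdc20 until kinetochores are attached, and was at 70.2, 70.5 and 160.3 in CTR, 159.8, 129.9 and 88.6 in Igf-1 and 951, 1144 and 589 in AA. AA was apart from the other groups, which overlapped, and AA stood 3.17 ± 0.41 (SE, adjusted p = 0.000775) above CTR on the log2 scale. Ttk encodes the checkpoint kinase Mps1 and gave 199, 120.0 and 159 in CTR, 159, 163 and 193 in Igf-1 and 420.5, 539.9 and 416 in AA, with AA again above and a smaller log2 fold change of 1.52 ± 0.25 (SE, adjusted p = 0.00297). The BubR1 gene bub1bb rose by 2.65. Bub3, the partner of the Bub kinases, was at 856, 906 and 1286 in CTR, 892, 1072 and 1067 in Igf-1 and 1692, 2081 and 1496 in AA. Its AA libraries were above all others, but the log2 fold change of 0.79 ± 0.20 (SE, adjusted p = 0.0242) fell short on size. Without CTR 3 it reached 1.03 and passed (adjusted p = 0.00624). With Igf-1 the 4 genes lay between −0.16 and 0.34.

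The chromosomal passenger complex corrects wrong attachments and later directs cleavage, and its 3 tested genes all rose with AA. Aurkb, its aurora B kinase, was at 61.7, 79.3 and 59.2 in CTR, 82.9, 89.1 and 71.3 in Igf-1 and 654, 753 and 601 in AA. AA lay far above, CTR and Igf-1 overlapped, and the log2 fold change was 3.32 ± 0.24 (SE, adjusted p = 6.98e-05). The borealin gene cdca8 was at 238, 171 and 239.7 in CTR, 204, 280.1 and 233 in Igf-1 and 1001, 996 and 719.8 in AA, and rose by 2.07 ± 0.24 (SE, adjusted p = 0.00044). Survivin, encoded by birc5a, gave 52.2, 38.5 and 47.6 in CTR, 48.9, 51.0 and 34.7 in Igf-1 and 527, 371 and 204 in AA. AA 3 was well below AA 1, yet above all CTR and Igf-1 libraries (2.99 ± 0.39, SE, adjusted p = 0.000736). With Igf-1 the 3 genes lay at −0.04 to 0.28.

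Centromere and kinetochore genes were mixed, with 9 of 15 higher with AA and log2 fold changes from 0.31 to 3.76. The NDC80 complex is the part of the kinetochore that grips microtubules, and its 4 genes all rose with AA, ndc80 by 2.89, nuf2 by 2.62, spc24 by 2.90 and spc25 by 3.41. This grouping, that of condensin and that of the inner kinetochore genes were made after the values were seen. Spc25 was at 45.6, 8.81 and 0 in CTR and did not pass without CTR 2, AA 1 or AA 3 (adjusted p = 0.0973, 0.0753 and 0.0537), nor with CTR and AA alone in the fit (adjusted p = 0.069). Cenpf, a large protein of the outer kinetochore and nuclear matrix, was at 121, 63.9 and 31.8 in CTR, 156, 99.3 and 97.3 in Igf-1 and 731, 453 and 653 in AA, with AA above the rest and a log2 fold change of 3.06 ± 0.45 (SE, adjusted p = 0.00154).

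The inner kinetochore genes from cenpi to cenpx, 8 in all without cenpj and cenpv, gave 4 higher with AA. Cenpk was at 11.4, 8.81 and 0 in CTR, 33.2, 31.5 and 9.64 in Igf-1 and 123, 65.2 and 102 in AA, so that its 3.76 ± 0.88 (SE, adjusted p = 0.0163) rests on few sequenced pairs in CTR, and without AA 1 the adjusted p was 0.0615. Cenpl rose by 3.44 and missed the threshold without CTR 2 (adjusted p = 0.0505). Cenpi rose by 2.15 and cenpp by 1.43. The other 4 did not pass, namely cenpo (1.20 ± 0.43, SE, adjusted p = 0.0891, passed without CTR 3 with adjusted p = 0.041 and in DESeq2 with 0.0374), cenpx (0.92 ± 0.39, SE, adjusted p = 0.146), cenpn (0.52 ± 0.32, SE, adjusted p = 0.329) and cenps. Cenps and cenpx encode histone-fold proteins that in human cells also serve in DNA repair. Cenps was at 339.7, 142 and 131 in CTR, 302, 426 and 289 in Igf-1 and 523, 393 and 175 in AA. The 3 groups overlapped, and each held libraries that differed widely.

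Cenpv and cenpj carry centromere names but stand apart by role. Cenpv, a protein reported at centromeres and on the central spindle, was at 171, 237 and 263 in CTR, 199, 276 and 273 in Igf-1 and 358, 373 and 249.5 in AA, with AA 3 inside the CTR range and a log2 fold change of 0.55 ± 0.27 (SE, adjusted p = 0.211). Cenpj, which RefSeq lists as cpap, encodes a centriole protein and gave 91.1, 145 and 93.8 in CTR, 111, 87.2 and 81.9 in Igf-1 and 121, 128 and 159 in AA. AA overlapped CTR and the log2 fold change was 0.31 ± 0.31 (SE, adjusted p = 0.588). No gene of this role passed with Igf-1, where the highest value was cenpl at 2.21 ± 0.78 (SE, adjusted p = 0.366).

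Genes of cohesion, separase and the anaphase-promoting complex were higher with AA in 4 of 5. Cdc20, the activator of the anaphase-promoting complex, was at 115, 128 and 192 in CTR, 138, 219.9 and 180.2 in Igf-1 and 831, 842 and 645 in AA. Every AA library was above the others and the log2 fold change was 2.42 ± 0.28 (SE, adjusted p = 0.00044). Espl1, encoding separase, rose by 3.14 with AA libraries within 561 to 566. Cdca5, encoding sororin, which protects cohesin, rose by 1.22 ± 0.31 (SE, adjusted p = 0.0251), and it did not pass without CTR 1, CTR 2, AA 1 or AA 2 (adjusted p = 0.0694, 0.0759, 0.0674 and 0.0632), nor with CTR and AA alone in the fit (adjusted p = 0.0703).

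Among these genes 2 carry the symbol of Ube2c, the ubiquitin carrier of the anaphase-promoting complex. ENSSAUG00010009309 was at 102, 94.7 and 134 in CTR, 146, 164 and 120.4 in Igf-1 and 504, 823 and 345 in AA, and all AA libraries lay above the rest (2.34 ± 0.34, SE, adjusted p = 0.00138). ENSSAUG00010009314 was at 2844, 2729 and 4591 in CTR, 2636, 3269 and 3780.1 in Igf-1 and 4239, 4841 and 2774 in AA, and the groups overlapped (0.22 ± 0.26, SE, adjusted p = 0.653). The deposited description of the latter names the terminal deoxynucleotidyltransferase interacting protein 1, so it may not be Ube2c. Leaving it out changed no count of genes that passed.

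Chromosome structure gave 9 of 10 higher with AA. Top2a, topoisomerase II alpha, which untangles sister DNA, was at 193, 156 and 286 in CTR, 576, 414 and 339 in Igf-1 and 2359, 2441 and 2386 in AA. The groups were separate in the order CTR, Igf-1, AA, the AA libraries were within 2359 to 2441, and the log2 fold change was 3.50 ± 0.27 (SE, adjusted p = 7.37e-05). With Igf-1 it was 1.07 ± 0.26 (SE, adjusted p = 0.131) in edgeR and passed in DESeq2 (adjusted p = 0.0101). The proliferation marker Ki-67, mki67, was at 1021, 774 and 163 in CTR, 1074, 945 and 878 in Igf-1 and 3453, 2594 and 3372 in AA. CTR 3 was far below the other CTR libraries. AA was 2.26 ± 0.49 (SE, adjusted p = 0.0117) above CTR, and 1.83 without CTR 3 (adjusted p = 4.3e-04). The deposited description of this gene reads titin-like, whereas RefSeq gives its gene number the symbol mki67.

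Condensin exists in 2 forms that share the Smc2 and Smc4 subunits. Smc4 was at 5362, 4941 and 3381 in CTR, 5985, 6166 and 6685 in Igf-1 and 8433, 8782 and 7654 in AA. No group overlapped another, yet the log2 fold change with AA was 0.86 ± 0.18 (SE, adjusted p = 0.00851), short of the size threshold, and with Igf-1 0.46 ± 0.18 (SE, adjusted p = 0.429). Smc2, its partner in the same ring, rose by 3.04, from 112 to 240 in CTR to 1538 to 1646 in AA. The subunits of condensin I (ncapd2, ncapg and ncaph) rose by 2.78 to 2.89 and those of condensin II (ncapd3, ncapg2 and ncaph2) by 1.33 to 2.64. Summed over its 3 subunits, condensin I was at 526, 350.2 and 478 in CTR, 750, 634 and 612 in Igf-1, and 3524, 3470 and 2774 in AA. Condensin II was at 309, 459 and 579, at 602, 654 and 671, and at 1552, 1862 and 1536. In each form every AA library lay above all others.

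Spindle assembly gave 3 of 4 higher with AA. Aspm, which focuses spindle poles, was at 134, 123 and 93.8 in CTR, 214, 209 and 189.8 in Igf-1 and 937, 795 and 1035 in AA. The groups were separate, and AA was 2.97 ± 0.22 (SE, adjusted p = 6.98e-05) above CTR while Igf-1 was 0.80 ± 0.21 (SE, adjusted p = 0.185). Dlgap5, a spindle assembly factor also called HURP, gave 68.3, 108 and 169 in CTR, 234, 201 and 198 in Igf-1 and 887, 884 and 783 in AA, with the same order of groups and 2.89 ± 0.31 (SE, adjusted p = 0.00031) with AA. The microtubule-binding hmmr rose by 3.06. Tpx2, the activator of aurora A, was the exception, at 1491, 1835 and 2060.2 in CTR, 1213, 1551 and 2186 in Igf-1 and 2320.1, 3162 and 1785 in AA. Its groups overlapped (0.43 ± 0.26, SE, adjusted p = 0.322), and RefSeq places another gene over the same stretch.

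Cytokinesis genes were all higher with AA, 5 of 5, with log2 fold changes between 2.70 and 3.00. Anillin (anln), which scaffolds the contractile ring, was at 196, 101 and 78.0 in CTR, 182, 209 and 128 in Igf-1 and 1002, 759 and 1254 in AA. AA was above both other groups, which overlapped, and the log2 fold change was 3.00 ± 0.38 (SE, adjusted p = 0.000641). PRC1, which bundles microtubules of the central spindle, gave 128, 74.9 and 113 in CTR, 163, 161 and 178 in Igf-1 and 911, 855 and 716 in AA, in 3 separate groups (2.97 ± 0.25, SE, adjusted p = 0.000107 with AA and 0.67 ± 0.24, SE, adjusted p = 0.377 with Igf-1). Racgap1, part of centralspindlin, was at 106, 72.7 and 89.5 in CTR, 141, 109 and 90.6 in Igf-1 and 644, 736 and 559 in AA, with AA alone apart (2.85 ± 0.27, SE, adjusted p = 0.000144). The RhoA activator ect2 rose by 2.70, and prc1b by 2.91.

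The last 3 genes carry the name cell division cycle associated without a role in the division apparatus that is certain. Cdca4 was at 1332, 1241 and 1258 in CTR, 1243, 1129.9 and 1272 in Igf-1 and 1266, 908 and 1382 in AA. The groups overlapped and this was the only gene with a negative log2 fold change with AA (−0.11 ± 0.17, SE, adjusted p = 0.761). Cdca7b was at 582, 499 and 925 in CTR, 608, 795 and 688 in Igf-1 and 836, 913 and 671 in AA, with overlap and 0.27 ± 0.25 (SE, adjusted p = 0.547). Its paralog cdca7a gave 82.6, 76.0 and 28.9 in CTR, 129, 237 and 183 in Igf-1 and 483, 496 and 624 in AA. The groups did not overlap, and cdca7a rose by 3.08 ± 0.40 (SE, adjusted p = 0.000733) with AA. With Igf-1 it stood at 1.54 ± 0.38 (SE, adjusted p = 0.147), which passed in DESeq2 alone (adjusted p = 0.00744).

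**Figure D3:**
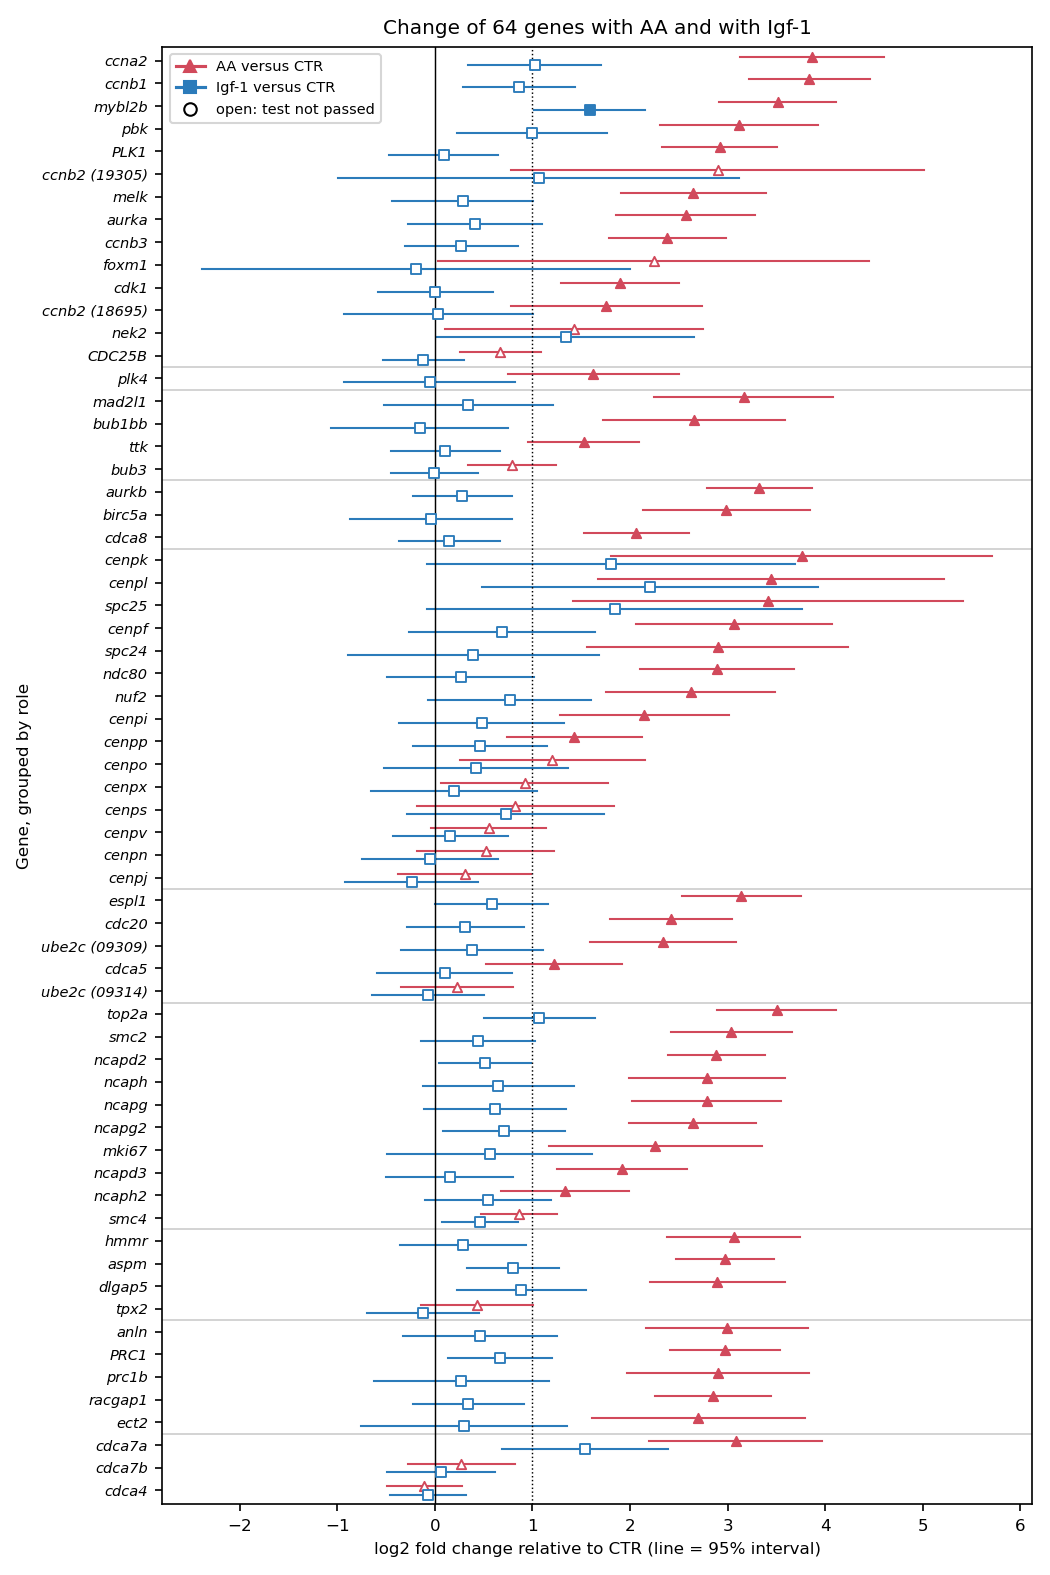
Log2 fold change relative to CTR (x axis) of the 64 tested genes (y axis, grouped by role), for AA (triangles) and Igf-1 (squares), with 95% intervals; filled symbols passed, and the dotted line marks 1. Of the AA symbols 48 are filled, and of the Igf-1 symbols 1, mybl2b.

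Several genes had a second copy. Of the 2 cyclin B2 genes, ENSSAUG00010018695 rose with AA (1.76 ± 0.44, SE, adjusted p = 0.0227), but not without CTR 1, CTR 2 or AA 1 (adjusted p = 0.0773, 0.076 and 0.068) or with CTR and AA alone in the fit (adjusted p = 0.063). The other, ENSSAUG00010019305, at 19.0, 0 and 24.5 in CTR and 90.1, 162 and 70.5 in AA, did not pass in edgeR (2.90 ± 0.95, SE, adjusted p = 0.0678), but did in DESeq2 (adjusted p = 0.00778) and with counts divided by 4 (adjusted p = 0.0185). PRC1 and prc1b both rose. The difference between copies was not tested, and how reads shared by 2 copies were assigned is not given in the sources used here. Of the 67 genes, 57 could be matched to RefSeq, and overlap was not checked for the rest. According to RefSeq, ncapd2, spc25, cenpp, tpx2, cenpo and cenps overlap another gene. Without these 6 genes 45 of the others, unmatched genes included, were higher with AA.

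The genes that passed against CTR but not against Igf-1 numbered 7. For cenpk the log2 fold changes of AA were 3.76 against CTR and 1.96 against Igf-1, for cenpl 3.44 and 1.24, for spc25 3.41 and 1.57, and for mki67 2.26 and 1.70. Smaller values were found for cenpp (1.43 and 0.97), ncaph2 (1.33 and 0.79) and cdca5 (1.22 and 1.12). Adjusted p-values against Igf-1 ran from 0.0533 for cdca5 to 0.376 for cenpl, and these calls depended on the setting for all but cenpl and ncaph2, which passed against Igf-1 in none of the alternatives run. Of the 15 alternatives on counts, mki67 passed in 5, among them DESeq2 (adjusted p = 0.00261), AA and Igf-1 alone in the fit (adjusted p = 0.00152) and the fit without CTR 3 (adjusted p = 5.3e-04), and it also passed with limma on FPKM (adjusted p = 0.00512). Cdca5 passed in 6 of 15, DESeq2 included (adjusted p = 0.00665). Cenpk passed in DESeq2 (adjusted p = 0.0469) and without CTR 3 (adjusted p = 0.0462), cenpp in DESeq2 (adjusted p = 0.0272), and spc25 with AA and Igf-1 alone in the fit (adjusted p = 0.0341) and with limma on FPKM (adjusted p = 0.018). By contrast aurkb, ccnb1, ccna2 and PLK1 differed from Igf-1 by 3.04, 2.97, 2.84 and 2.83.

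Levels per length could be read in Igf-1 and AA, the groups whose FPKM were given for all genes. The summed FPKM of the 64 genes were 185, 190.0 and 186 in Igf-1 and 446, 444 and 422 in AA, or 0.0272% to 0.0281% and 0.0638% to 0.0708% of all FPKM. The median gene was at 0.898 FPKM in Igf-1 and 3.89 in AA, so most of these messages were rare in either group. In AA the levels ran from 0.38 FPKM for foxm1 ENSSAUG00010017515 to 52.9 for ube2c ENSSAUG00010009314, the gene described as another gene. The sums, medians and correlations of the 64 genes include it and were not recomputed without it. Next among the genes given in full were cdk1 at 42.9, smc4 at 27.2, cdca4 at 21.1, bub3 at 21.0, ccnb1 at 20.5 and mad2l1 at 17.4. The genes that passed with AA had a median of 0.832 FPKM in Igf-1 (0.123 to 11.3), and the 16 that did not had a median of 4.37 (0.0651 to 41.8). Across the 64 genes, level in Igf-1 and log2 fold change of AA against CTR gave Spearman's rho = −0.38 and, with log2 FPKM, Pearson's r = −0.54, a description across genes that share their libraries. CTR is the base of this fold change and most genes lay at similar levels in CTR and Igf-1. A negative relation is therefore partly built in.

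**Figure D4:**
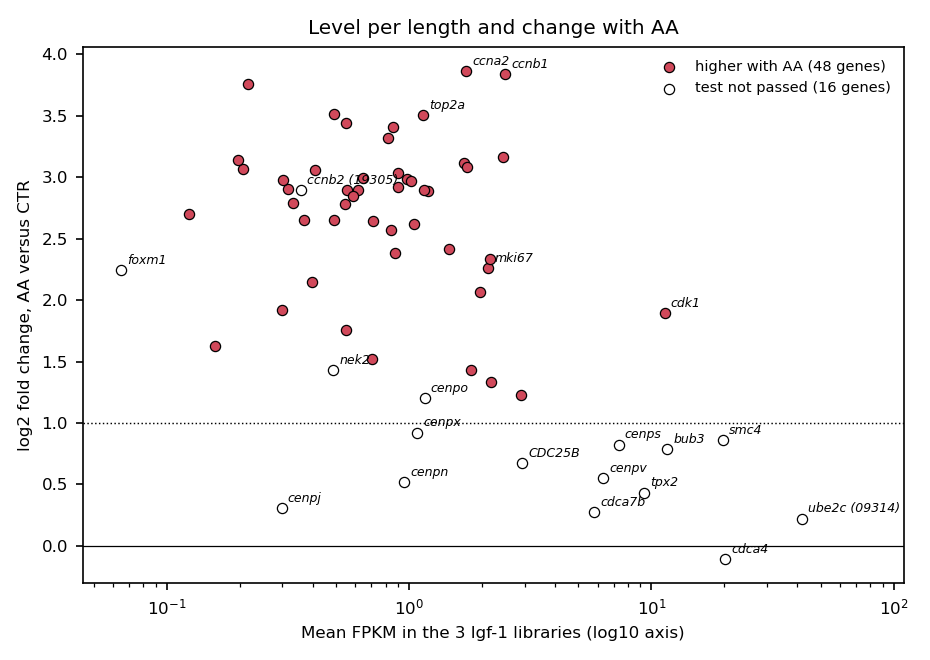
Mean FPKM in the 3 Igf-1 libraries (x axis, log10 scale) and log2 fold change of AA against CTR (y axis) for each of the 64 genes, filled where the test was passed. Of the 16 genes that did not pass, 9, among them smc4, cdca4, bub3, tpx2 and ube2c ENSSAUG00010009314, lie to the right at 2.93 FPKM or more, where cdk1 is the lone filled point.

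Genes of the same pathways outside the set were read from lists of names, and their counts stand beside 4.83% of all genes higher with AA. Of the outer kinetochore and corona, 8 of 12 tested genes were higher with AA (median log2 fold change 2.62), among them trip13, which remodels Mad2 (2.71 ± 0.45, SE), mis12 (2.97 ± 0.63) and the rod gene kntc1 (1.88 ± 0.23). Of the brakes and licences of Cdk1, 5 of 11 were higher, including cks2, a Cdk1 subunit (1.81 ± 0.31), and mastl, the Greatwall kinase (2.43 ± 0.56). Of centrosome and spindle pole genes 4 of 13 were higher, with nusap1 at 2.49 ± 0.28. In the anaphase-promoting complex 1 of 18 was higher, its inhibitor fbxo5 (3.31 ± 0.73), and the median was 0.13. In cohesin 1 of 15 was higher, the acetyltransferase ESCO2 (3.22 ± 0.49), with a median of 0.03. In these last 2 lists 1 gene is close to what the share of all genes gives. Of the DREAM and MuvB complexes, which repress or switch on late cell cycle genes, 0 of 9 passed in edgeR or DESeq2 (median 0.45, 3 higher at an unadjusted p of at most 0.05). DNA replication genes gave 29 of 36 higher (median 1.80). No gene of these 7 lists passed as lower with AA, where 5 of 114 were lower at an unadjusted p of at most 0.05 (14.5% of all genes). None passed in edgeR with Igf-1, where 19 of 114 were higher and 0 lower at that unadjusted p (5.07% and 4.04% of all genes) and DESeq2 called 2 higher.

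Some markers of cell types also passed with AA, beside 4.83% of all genes higher and 3.79% lower. The 17 muscle lineage genes summed to 214881 to 347281 normalized counts in CTR, 324288 to 386794 in Igf-1 and 488499 to 736120 in AA, with 4 higher with AA, all of the contractile apparatus (an ACTA1 gene, MYLPF, mylpfb and tnnt3a). Defining markers of the labelled cells were present. The myod1 gene with more counts averaged 3776 in CTR, 4375 in Igf-1 and 5887 in AA, and myog 31376, 34177 and 43211. That myod1 gene rose with AA by 0.64 ± 0.13 (SE, adjusted p = 0.00693), which passed on p and not on size. So did cdh15, at 40547, 44817 and 67058 in the 3 groups, by 0.73 ± 0.15 (SE, adjusted p = 0.0105). Myog (0.46 ± 0.20, SE, adjusted p = 0.168), the second myod1 gene and the Pax genes passed on neither. In the same order of groups the second myod1 gene averaged 145, 149 and 146, PAX7 274, 322 and 278, and PAX3 297, 275 and 263. The more abundant pax7b averaged 381, 514 and 409, and pax3b 1948, 2288 and 1686. Both desmb and myf6 averaged 31.9 or fewer in every group. Over the 17 muscle lineage genes the median log2 fold change with AA was 0.15. The 12 fibroblast genes summed to 831801 to 981462 in CTR, 958654 to 1001740 in Igf-1 and 968740 to 1061220 in AA, and 0 of 11 tested passed in edgeR or DESeq2 (3 higher and 1 lower at an unadjusted p of at most 0.05). On p and not on size, pdgfra was lower with AA (−0.65 ± 0.16, SE, adjusted p = 0.0183) and postna higher (0.45 ± 0.13, SE, adjusted p = 0.044). Pigment cell genes summed to 30019 to 38469 in CTR, 23627 to 38077 in Igf-1 and 15100.0 to 26808 in AA, with dct, slc45a2 and TYR lower with AA. Leukocyte genes summed to 12511 to 19582, 16063 to 22555 and 17962 to 27062 in the 3 groups, and coro1a, 1 of 7, was higher with AA. Endothelial genes summed to 1130 to 1263, 1808 to 2138 and 1524 to 2167, with kdr, 1 of 7, higher. Neural and glial genes summed to 2206 to 2924, 2433.0 to 2573 and 2105 to 3267, with mbpa and mpz, 2 of 8 tested, higher and the neuronal markers elavl3 and elavl4 at 0 in all libraries. At an unadjusted p of at most 0.05 in edgeR, 2 of the 8 were higher with AA and 1 lower. Adipocyte genes, 3 in number, and the erythrocyte gene tested, slc4a1b, did not pass with AA against CTR. Against Igf-1, slc4a1b was lower with AA (−1.20 ± 0.30, SE, adjusted p = 0.0366), as were slc45a2 (−3.64 ± 0.56, SE, adjusted p = 0.00397) and dct, at 0 in every AA library, and the ACTA1 gene was higher (1.01 ± 0.28, SE, adjusted p = 0.0487). With Igf-1 against CTR no marker passed in edgeR, 5 of 65 were higher and 2 lower at an unadjusted p of at most 0.05 (5.07% and 4.04% of all genes), and DESeq2 called 2 higher. The part of these changes in the results on mitosis genes was not tested.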

How the data were processed

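Per the labels and methods, poly(A) RNA of 9 libraries (3 CTR, 3 AA, 3 Igf-1) was sequenced as stranded paired-end reads, mapped with HISAT2 to an Ensembl genome whose build is not named and quantified with StringTie. The authors quantified mapped reads per gene and deposited the result as a table of estimated counts, which they call normalized. Its whole values are not scaled to library size and pile up at 4, 8 and 12, from which a source in coverage was inferred. They were rounded, where plain counts had been planned. The deposited FPKM, read for AA and Igf-1, hold 0.0001 in place of 0. The authors' fold changes and p-values were not used, nor were tables selected on them.

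The 17687 of 27159 genes kept by filterByExpr were fitted with edgeR 4.0.16 in R 4.3.3 (TMM, quasi-likelihood, 3 groups, no covariate), with Benjamini-Hochberg adjustment over all of them. SE is that of the log2 fold change. DESeq2 1.42.0, limma 3.58.1 on log2(FPKM + 1) and other settings were alternatives. The fit was tested on simulated data for AA against CTR, with 200 of 17262 genes changed, and called 98% of 4-fold rises, 38% of 2-fold rises, 84% of 4-fold falls and 34% of 2-fold falls, with 5 calls among unchanged genes. In this simulation the changed genes were drawn only from genes above a minimum mean count. Their spread followed the trend over all genes and not each gene's own spread. A true 2-fold change lies on the size threshold itself, which holds its rate down. These rates are therefore not the sensitivity for the genes described, least of all for those with few counts. Neighbours and symbols came from the RefSeq gene table of the species, matched by gene number. Genes and lists were chosen with earlier results of these data known. Values in every library are given for up to 3 of the most abundant genes per role, genes passing with Igf-1, the 4 highest and 4 lowest log2 fold changes with AA, and any gene below 0.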

Additional observations from a re-analysis of the deposited data

How the results depend on the processing

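The count of genes higher with AA than with CTR was 48 and stayed between 43 and 50 on leaving out single libraries, and between 45 and 51 under RLE size factors, DESeq2 (50), no filter, only the groups compared (45), counts divided by 4 (49) and adjusted p alone (51). Over all genes, calls in both directions were 1525 in the main fit and 1286 to 1566 on leaving out a library. They were 1528 under RLE, 1893 with DESeq2, 1519 with no filter and 1233 with only the groups compared. With counts divided by 4 they were 1592, and on adjusted p alone 2688. Of the 48 genes, 42 passed in all 15 alternatives on counts. The count of AA over Igf-1 was 41, with 33 to 44 when a library was left out and 46 with DESeq2. It was 32, 43 and 30 with limma on FPKM at a pseudocount of 1, of 0.1, and without the FPKM filter. Over all genes, calls in both directions were 765 in the main fit, 437 to 881 without a library and 1023 with DESeq2. In the same order of limma settings they were 458, 736 and 377. Of the 41 genes, 33 passed in all 15 alternatives on counts and 8 were lost in at least 1. Among these 8, plk4, cdca7a and ccnb2 ENSSAUG00010018695 passed in 8 of 15 alternatives, spc24 in 9 and cenpi in 10. Ect2 passed in 12, and cenpf and nuf2 in 13. The count of Igf-1 over CTR was 1 and was 0 when any library was left out (0 to 0), 0 with only those groups in the fit, and 3 with DESeq2 (mybl2b, top2a and cdca7a). Over all genes, calls in both directions ran from 1 to 58 on leaving out a library, against 46 in the main fit. Single genes lost their call in 90 and gained it in 31 of the values recomputed, and none of those that passed reversed.

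Correlations of deviations from the group mean ran from −0.39 to 0.22 between same-numbered libraries (median 0.02). Between libraries of different number they ran from −0.31 to 0.40 (median −0.03). Whether libraries share a culture, under these or other numbers, cannot be told from these values. With the replicate block the counts were 46 (AA over CTR), 0 (Igf-1 over CTR) and 37 (AA over Igf-1). The calls lost under it against CTR were plk4 (adjusted p = 0.0533) and cdca5 (0.0579) with AA and mybl2b (0.156) with Igf-1. Over all genes, calls in both directions went from 1525 to 1283, from 46 to 0 and from 765 to 547. Also over all genes, DESeq2 called 218 with Igf-1 against CTR and the fit of only these groups 21.

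Setting aside, after the data were seen, the ube2c gene described as another gene gave 48, 1 and 41. Setting aside the 6 genes known to overlap another gave 45, 1 and 40. Genes not matched to RefSeq were not checked for overlap and were kept. The promoter motif window was not run, as no promoter sequence was used here. Genes at under about 50 normalized counts rest on few sequenced pairs.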
